A study of Drosophila melanogaster with 2 samples.

Results

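A group of 843 protein-coding genes had an accessible site inside the gene but none at either annotated end. They were chosen from 13946 protein-coding genes of the RefSeq annotation of Drosophila melanogaster by 2 conditions. At least 1 peak summit lay between the gene's start and end, and no peak overlapped the windows of 250 bp to either side of its 2 ends. These genes, called inside-open genes here, were 6.04% of all protein-coding genes (95% exact interval 5.65 to 6.45%), against 60.4% with a peak at an end and 33.6% with neither. The peaks themselves chose the genes, so what follows describes them and carries no test. Inside them lay 3125 of the 35535 summits of the peak list, or 8.79%, in 2483 intervals.

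The data were ATAC-seq on S2 cells, a Drosophila line that was derived from embryos and resembles hemocytes, the blood cells of the fly. A single group held 2 libraries, each made from 2000000 untreated cells grown at 25 degrees C, tagmented with the Tn5 transposase and amplified for 12 PCR cycles. Only 1 list of peaks served both libraries, so no value had a replicate error, and the depth of each library was unknown. The labels do not say whether the libraries came from separate cultures. Of 14 hemocyte marker genes 13 had a peak at an end and the other, vkg, was an inside-open gene, while a peak at an end was found for 2 of 3 germline, 3 of 6 neuron, 2 of 4 glia, 2 of 5 fat body, 1 of 4 photoreceptor, 1 of 6 muscle and 0 of 3 gut markers.

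In ATAC-seq the transposase cuts where DNA is free of nucleosomes. In flies, promoters of active genes usually hold such a gap, and enhancers, insulators and Polycomb response elements inside introns can hold one too. A gene can also start transcription from a promoter well inside its annotated span when it has several transcripts, or can carry a shorter gene in an intron. The annotation used here gave each gene's span but neither strand, exons nor transcript starts, so a site inside a gene could not be assigned to an exon, an intron or an internal promoter. The strength of a site is given as its pileup, the number of overlapping fragments at the summit. It was recovered as a whole number from the authors' fold and p-value columns, and its intervals are 95% Poisson intervals for counting error only. In a bulk sample, the number of cells with a site open and how open it is in each cannot be told apart.

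Inside-open genes were long. Their median length was 7542 bp (quartiles 3362 and 22271), against 2708 bp for genes with a peak at an end and 1292 bp for genes with neither. They made up 6.04% of the genes but 20.1% of the total length of protein-coding genes. A longer gene offers more room for a site inside, and the share was higher in each longer bin: 0.632% of 2691 genes under 1 kb (0.368 to 1.01%), 5.01% of 3212 genes of 2 to 4 kb, 13.2% of 1027 genes of 8 to 16 kb and 23.5% of 417 genes of 32 to 64 kb (19.5 to 27.9%). Above 64 kb it was 25.4% of 205 genes (19.6 to 31.9%), an interval that overlaps that of the bin below. The share of genes with a peak at an end did not follow length in this way. It was highest at 4 to 8 kb, at 76.2%, and lower again above 64 kb, at 62.0% (54.9 to 68.6%).

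**Figure D1:**
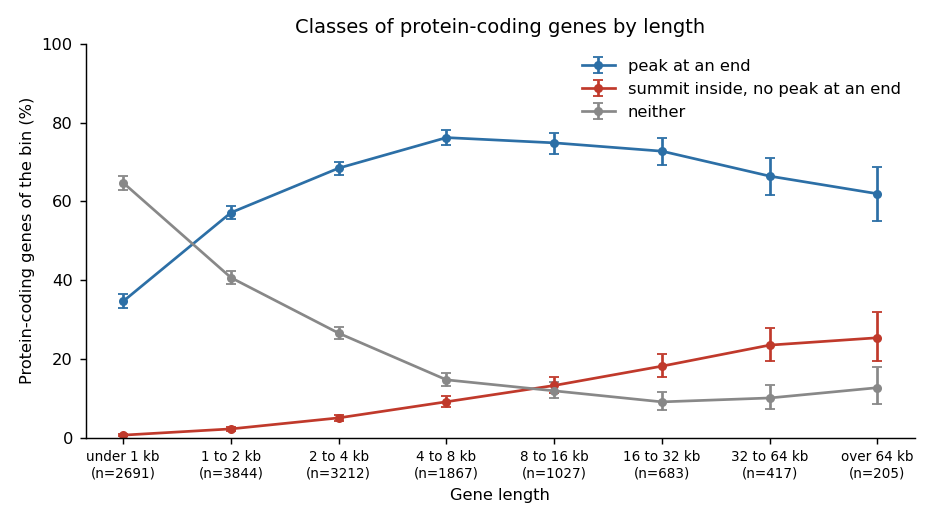
Share of protein-coding genes in each of the 3 classes (y axis, %) by gene length (x axis, with the number of genes in each bin); bars are 95% exact binomial intervals. The share of genes with a summit inside and no peak at an end (red) went from 0.632% under 1 kb to 25.4% above 64 kb.

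The shortest of them were CG14568, CG32248, CG33647, CG14313 and CG8661, with lengths of 682 bp to 0.74 kb. Each held 1 summit, with pileups of 20 to 26, at or near the lowest pileup of 20 in the whole list. The longest was Myo81F, a myosin gene of 1965857 bp near the centromere of 3R, which held 9 summits. It was followed by Pzl, a relative of the mechanosensory channel gene Piezo, at 709.4 kb with 5 summits, and by lovit, CG17684 and DIP-lambda at 434.0, 396.0 and 379.1 kb with 3, 1 and 3 summits.

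The median number of annotated transcripts was 2, as in genes with a peak at an end. More than 1 RefSeq transcript was listed for 616 of the 843 genes (73.1%, 69.9 to 76.0%), for 59.3% of genes with a peak at an end (58.2 to 60.4%) and for 30.4% of genes with neither (29.0 to 31.7%). Length moved with this difference. Within bins of length, the share was above that of genes with a peak at an end in 2 of 8 bins, at 1 to 2 kb (43.5 and 40.6%) and 4 to 8 kb (80.6 and 75.6%). It was below in the other 6, for example 83.1 and 86.6% at 8 to 16 kb and 78.8 and 96.1% above 64 kb.

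How far the sites lay from the ends varied widely. The median distance of the 3235 summits (a summit inside 2 genes counted for each) from the nearer end was 5231 bp (quartiles 1673 and 13890), and for the strongest summit of each gene it was 1695 bp. Sites were spread along the genes: with each gene cut into 5 equal parts, the summits fell 18.1, 20.9, 23.9, 21.0 and 16.1% into the parts from left to right. The windows of 250 bp empty the outermost parts of short genes by construction. In the 381 genes with a single summit, 30.7% of these lay in the middle part and 50.4% within 1000 bp of an end.

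For many of these genes the nearest peak lay close beyond the window. The distance from a gene end to the nearest peak, inside or outside the gene, had a median of 666 bp. It was at most 500 bp in 320 genes (38.0%) and at most 1000 bp in 549 (65.1%), so 294 genes had no peak within 1000 bp of either end. In 487 genes (57.8%) the summit of this nearest peak lay inside the gene. Those 294 genes had a median length of 16688 bp, against 4178 bp for the 320, but the strongest pileup inside was much the same, with medians of 38 and 41.

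At the boundary of the rule, the nearest peak of Ptr, a Patched-related gene, was 251 bp from an end, that of CG14313 and CG9395 252 bp, and that of CG33110 and CG42694 254 bp. The genes just outside the rule were GlcAT-S, SmydA-8, CG17672, CG5556 and Jhbp13, whose nearest peaks were 248 to 250 bp from an end with pileups of 21 to 101.

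Most inside-open genes held few sites. A single summit was found in 381 genes (45.2%), 2 to 4 in 284, 5 to 9 in 108 and 10 or more in 70 (8.30%). Those 70 genes held 42.7% of the gene and summit pairs. The strongest pileup, which more summits raise by construction, had a median of 28 in genes with 1 summit, 46.5 with 2 to 4, 130 with 5 to 9 and 243 with 10 or more, and median length went from 3911 to 42909 bp (42908.5).

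The sites were also weaker than other sites deep inside genes. The median pileup of the 3125 summits was 39 (quartiles 26 and 81), against 53 (32 and 106) for 18309 summits over 250 bp inside genes with a peak at an end. These sets differ by construction, here and in the bins of length below. A deep summit of the other genes could lie in an interval that reaches a window at an end. Such summits were barred from inside-open genes. Within 500 bp of an end lay 12.0% of 19179 deep summits, against 5.75% of the 3235 pairs of gene and summit. At or above the upper quartile of the whole list, a pileup of 109, lay 18.0% of the summits in inside-open genes (16.7 to 19.4%). The share was 24.3% for the deep summits of the other genes and 25.2% for all summits. At or below the lower quartile, a pileup of 33, lay 41.8% (40.1 to 43.5%), against 27.8% of the deep summits of the other genes. The caller's local background moved with this: it stood at its genome-wide floor of 9.91 fragments for 47.1% of the summits in inside-open genes and 24.6% of the others. The median fold, which divides by that background, was closer, at 3.01 and 3.24.

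The median pileup was lower in inside-open genes in each of the 8 bins of gene length. In genes of 4 to 8 kb the median pileup was 40 over 346 pairs against 59 over 2600, and in genes of 32 to 64 kb 43 over 782 against 52 over 4037. Sites were also sparser in the longer genes. Counted per kb of gene outside the windows, the median at 32 to 64 kb was 0.109 summits in inside-open genes and 0.315 in genes with a peak at an end and a summit deep inside. Below 4 kb the densities were near each other (0.524 and 0.547 per kb at 2 to 4 kb).

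**Figure D2:**
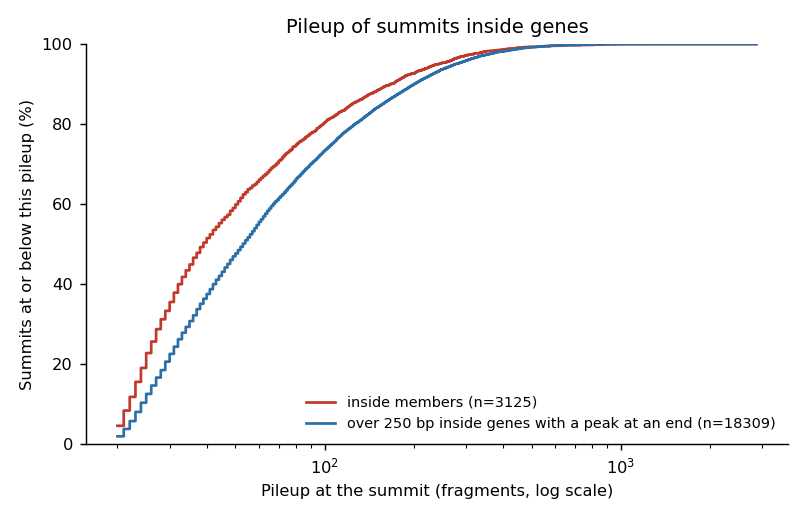
Cumulative share of summits (y axis, %) at or below each pileup (x axis, fragments, log scale) for 3125 summits inside inside-open genes (red) and 18309 summits over 250 bp inside genes with a peak at an end (blue). The red curve lies to the left, with medians of 39 and 53.

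A smaller set had sites as strong as those usual at gene ends. The highest pileup at an end had a median of 98 over the 8421 genes with a peak there. The strongest summit inside reached 98 in 230 inside-open genes (27.3%, 24.3 to 30.4%), with a median length of 14046 bp and a median of 4.5 summits. In 356 genes (42.2%) the strongest summit did not exceed 33, and 252 of these had no other summit. More summits raise this maximum by construction. Its median was 40 over the 843 genes, against 81 for the strongest deep summit in 3740 genes with a peak at an end.

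**Figure D3:**
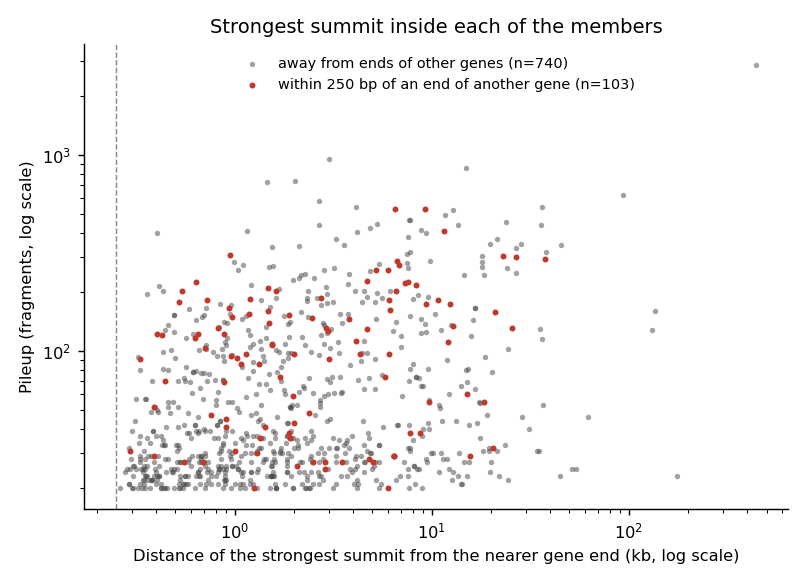
Pileup of the strongest summit inside each of the 843 inside-open genes (y axis, fragments, log scale) against its distance from the nearer gene end (x axis, kb, log scale); the dashed line marks 250 bp. Red points (103) lie within 250 bp of an end of another gene, grey points (740) do not, and pileups both at 20 and above 98 occur close to the ends and far inside.

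Among summits away from the ends of other genes, the highest pileup was 2865 (2761 to 2972) in Myo81F, at 3R 2088445. It rose over a background of 27.1 in an interval of only 137 bp, 444.5 kb from the nearer end of the gene. The sources give no mapping settings, so how reads that match several places were counted is unknown. Whether this bears on the site was not tested. Of the 9 summits of Myo81F 7 lay between 1518.3 and 1522.0 kb from its left end, with pileups of 86 to 2865, and the other 2 had 26 and 28.

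The next 4 genes, of 8.17 to 58.3 kb, had backgrounds at the strongest summit of 42.0 to 119 fragments, against a median of 12.5 over all summits. HmgZ, which encodes an HMG-box chromatin protein, held 10 summits in 10.4 kb with pileups of 173 to 955 and a median of 594, over a median background of 103 fragments, the highest such median among the inside-open genes. Its nearest peak was 613 bp from an end. In shn, a zinc-finger gene of the Dpp pathway, the highest of 50 pileups was 859 (803 to 918) and the median 176.5, and 36 of the 50 were at or above 109. In eff, which encodes a ubiquitin-conjugating enzyme, the strongest summit had 731 (679 to 786) at 3R 14739305, 2.01 kb from an end. CG3164 had 727 (675 to 782) at 2L 129331, 1.46 kb from an end.

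Other strong sites lay in CAP, an adapter protein gene with 28 transcripts (583), CG7367 (542, at 2L 8031025, 304 bp from an end of Cka) and fru, a transcription factor gene of male courtship neurons (541, at 3R 18450363). Pzl reached 624 (576 to 675) at 3R 3170357 and kl-5, a Y-linked dynein gene needed for sperm tails, 524 (480 to 571) at Y 124729. Both stood over the background floor of 9.91 fragments in narrow intervals, of 79 and 94 bp, whereas the intervals in HmgZ, shn, eff, CG3164, CAP, CG7367 and fru were 191 to 775 bp wide. The limit on reads that match several places holds for Pzl and kl-5 too.

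The genes with most summits showed several layouts. The first was fru, with 54 summits in 131.3 kb and a median pileup of 93.5. Its 21 summits at or above 109 stood in 2 groups, from 33.0 to 36.2 kb and from 59.9 to 67.5 kb from the left end, with weaker sites before, between and after. In shn the sites filled the stretch from 14.6 to 45.5 kb from its left end, and 4 weaker ones followed past 50 kb. The translation initiation factor gene eIF5B held 34 summits in 32.3 kb with pileups of 44 to 399. Its strongest, 399, lay 0.403 kb from the right end. The nearest peak was 255 bp from an end, 5 bp outside the window.

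A different layout was that of Con, which encodes the adhesion protein connectin. Its 41 summits were spread over 142.3 kb, and none exceeded a pileup of 66, with a median of 25 and a median background at the floor of 9.91. Between these lay SNF4Agamma (41 summits, highest 335), an AMPK subunit gene, mtd (35, highest 318), and hth (30, highest 349), which encodes a homeodomain cofactor of Hox proteins. The polypyrimidine-tract-binding protein gene heph had 44 summits, the highest at 293.

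**Figure D4:**
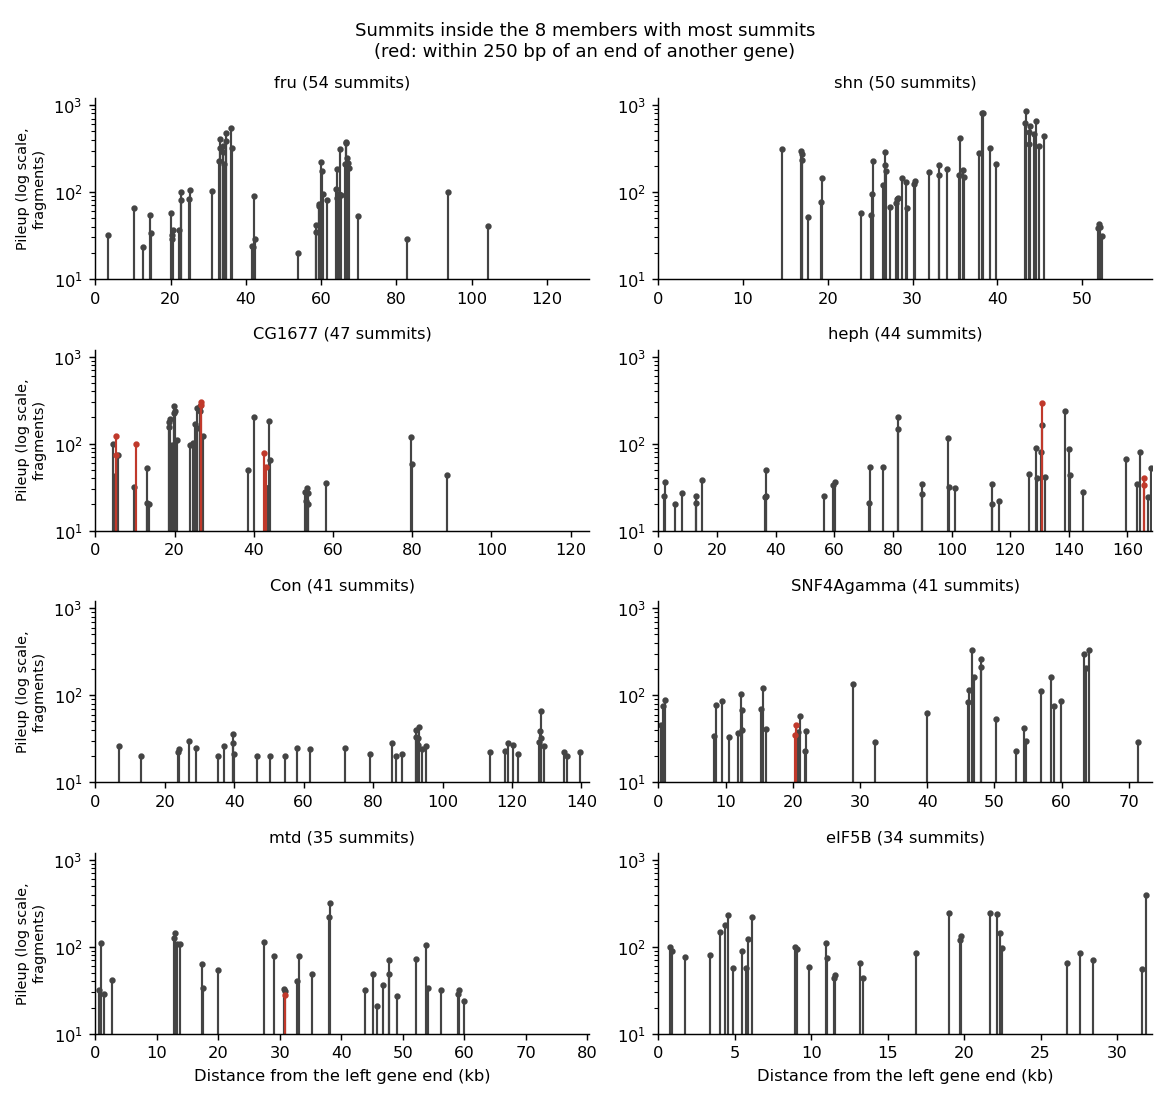
Pileup of each summit (y axis, fragments, log scale) by its distance from the left gene end (x axis, kb) in the 8 inside-open genes with most summits; red marks summits within 250 bp of an end of another gene. In fru and shn the strong sites form groups, while the 41 summits of Con stay at or below 66.

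Counted per kb of gene outside the windows, among genes with at least 5 summits, the densest were CG31407 with 5 summits in 2.31 kb (2.77 per kb), which lies inside Mical, CG4390 with 1.76, CG9449 with 1.55, spi with 1.35 and CG9837 with 1.30. In spi, which encodes the main EGFR ligand, 12 summits had pileups of 72 to 405 over backgrounds of 37.0 to 52.2. The nearest peak was 307 bp from an end of spi, which is 9.42 kb long.

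Some of the sites lay at ends of other genes. Of the 3235 pairs 285 (8.81%, 7.86 to 9.84%) lay within 250 bp of an end of another gene, against 6.00% of 19179 deep summits in genes with a peak at an end. The other gene was protein-coding in 189, a lncRNA in 44, a tRNA in 24 and an antisense RNA in 22. These sites, 272 when each was counted 1 time, had a median pileup of 71, against 38 for the rest, and 33.1% of them (27.5 to 39.0%) were at or above 109. They lay in 165 of the 843 genes, and in 38 of them every summit was of this kind. The strongest summit of the gene was of this kind in 103 genes (12.2%). In 205 of the inside-open genes (24.3%) another protein-coding gene lay wholly inside or had the same coordinates. In 106 of the 373 pairs of host and nested gene (28.4%, 23.9 to 33.3%) the nested gene had a peak at its own end. Over all protein-coding genes the share with a peak at an end was 60.4%, but the shares are not alike. The rule allows no peak at an end that a nested gene shares with its host. Pairs with identical coordinates, counted here, could therefore have none. Differences in length were not taken into account.

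The strongest of these sites had a pileup of 526 (482 to 573), 116 bp from an end of CG46321. It counted for both CG12912 and Hr3, because CG12912 lies inside Hr3, a nuclear receptor gene of the ecdysone response. In CG42346 a summit of 305 lay 142 bp from an end of fog, the ligand gene of apical constriction in gastrulation. HmgZ shared a site with HmgD, its paralog, with a pileup of 351 at 74 bp. CG9289 had 308 beside a tRNA gene for aspartate, comm3 had 287 beside Phs and beat-Ib 273 beside a lncRNA gene.

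A host of many genes was CG1677 on X, with 47 summits in 124.7 kb. It held 13 protein-coding genes, of which CG2059, unc-119, brk, Atg5 and Dok had a peak at an end. Its highest pileup, 301 (268 to 337), lay 75 bp from an end of brk, which encodes a repressor of Dpp target genes. In heph the strongest summit, 293, lay 107 bp from an end of CG2003.

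By function, no gene of the cell cycle list or of the cytosolic and mitochondrial ribosomal protein families was in this class. Gene lengths would give only 2.23, 2.17 and 1.16 genes. Counts of 0 of 35, 92 and 73 allow shares of up to 10.0, 3.93 and 4.93% by the exact interval. Counts above those that gene lengths would give were found for receptor, ion channel, dpr and muscle genes. They were also found for unrelated families, among them Cpr cuticle proteins, glutathione S-transferases and tetraspanins, while axon guidance genes were near theirs. The counts in the receptor, ion channel and muscle lists moved by over 1.5 times with the peak threshold or the window. Membership was set beside the 6.04% of all protein-coding genes. It was also set beside the count that each group's gene lengths alone would give if its genes had the share of their length bin. That count ignores peaks at an end, which bar a gene from the class. A group with few such peaks can exceed it for that reason alone, and one with many fall below it. A peak at an end was found for 30.4% of receptor, 39.5% of ion channel, 28.6% of dpr and 32% of muscle genes. Over all genes it was 60.4%. For Cpr, glutathione S-transferase and tetraspanin genes it was 15.7, 77.1 and 58.8%. Whether the counts differ among genes without a peak at an end was not tested. Over the 15 function lists together 84 of 550 genes were inside-open (15.3%), near the 77.2 that lengths gave. Of 273 genes for cell cycle control, cytosolic and mitochondrial ribosomes, proteasome and Mediator 3 were inside-open (1.10%, 0.227 to 3.18%), where lengths gave 7.68, and 249 had a peak at an end. The 3 were MED6 and MED26, with strongest pileups of 155 (36 bp from an end of Naa80) and 214, and Prosbeta5R2, a testis relative of a proteasome gene, with 23. Mediator alone gave 2 of 25, where lengths gave 0.981, and the proteasome 1 of 48, where lengths gave 1.14. Of 185 genes for ion channels, transmitter receptors, axon guidance and neural adhesion 59 were inside-open (31.9%, 25.2 to 39.1%), where lengths gave 34.5. Both pools were formed after the values were seen. The second left out the ionotropic, gustatory and odorant receptor families. These gave 6 of 60, 3 of 60 and 4 of 59, where lengths gave 2.72, 1.77 and 1.58.

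Receptors for transmitters and neuropeptides gave 18 of 46 (39.1%, 25.1 to 54.6%), where lengths gave 7.78. The count was 11 with only peaks of −log10 q of at least 10 and 14 with a window of 1000 bp. At these settings 4.15 and 2.11% of all protein-coding genes were inside-open. At the main setting another 14 of the 46 had a peak at an end and 14 had neither. The strongest pileup in these 18 genes had a median of only 42.5, and it reached 98 in 3 of them. Those were nAChRalpha5, a nicotinic acetylcholine receptor gene, with 223, AstC-R1, an allatostatin C receptor gene, with 188 and mAChR-A, a muscarinic receptor gene, with 149. The site of nAChRalpha5 lay 59 bp from an end of NimC4, a phagocytic receptor gene that lies inside it. At the other extreme TyrR and TkR99D had a single summit with a pileup of 20.

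Ion channels gave 12 of 38 (31.6%, 17.5 to 48.7%), where lengths gave 6.08. The strongest pileup reached 98 in 3 of them. The sodium channel gene para, with 60 transcripts in 78.1 kb, had summits of 26, 219 and 72 from left to right, all within 5 kb of its left end, and none in the rest of its span. NaCP60E, another sodium channel gene, had 174, within 250 bp of an end of a gene inside it, and unc79, a partner of the NALCN-type channel, 119 at its 1 summit. The other 9 had 25 to 90, among them the potassium channel genes sei (88), Shal (66), Elk (27), Shaw (27) and Task6 (25). With a window of 1000 bp 4 channel genes were inside-open, when the share over all protein-coding genes was 2.11%.

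Axon guidance and adhesion genes gave 10 of 49 (20.4%, 10.2 to 34.3%), near the 10.3 that lengths gave. The receptor phosphatase gene Lar led with 163, then Sema2a with 143 and the teneurin gene Ten-a with 128, while CadN, over 131.3 kb, had a single summit of 46. The dpr genes, which encode immunoglobulin proteins of synapse matching, gave 9 of 21 (42.9%, 21.8 to 66.0%) against 3.79 from lengths. Their strongest pileups were 20 to 81, with a median of 27, and 8 of the 9 were at or below 33.

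Muscle genes gave 10 of 25 (40.0%, 21.1 to 61.3%), where lengths gave 3.19, and 8 had a peak at an end. Msp300, a nesprin that links nuclei to the cytoskeleton, stood apart with 22 summits and a pileup of 380. Strn-Mlck, a myosin light chain kinase gene, reached 146 and Zasp66, a Z-disc protein gene, 129, the latter near an end of Cdc6. The other 7 had 20 to 44: up (troponin T) had 44, Prm (paramyosin) 37, sls (a titin-type protein) 35, Mlp60A and Obsc 26 each, Mhc (muscle myosin) 21 and Tm2 (tropomyosin) 20. The count depended on the settings: 4 muscle genes were inside-open with only peaks of −log10 q of at least 10, and 5 with a window of 1000 bp. Over all protein-coding genes the share at these settings was 4.15 and 2.11%.

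**Figure D5:**
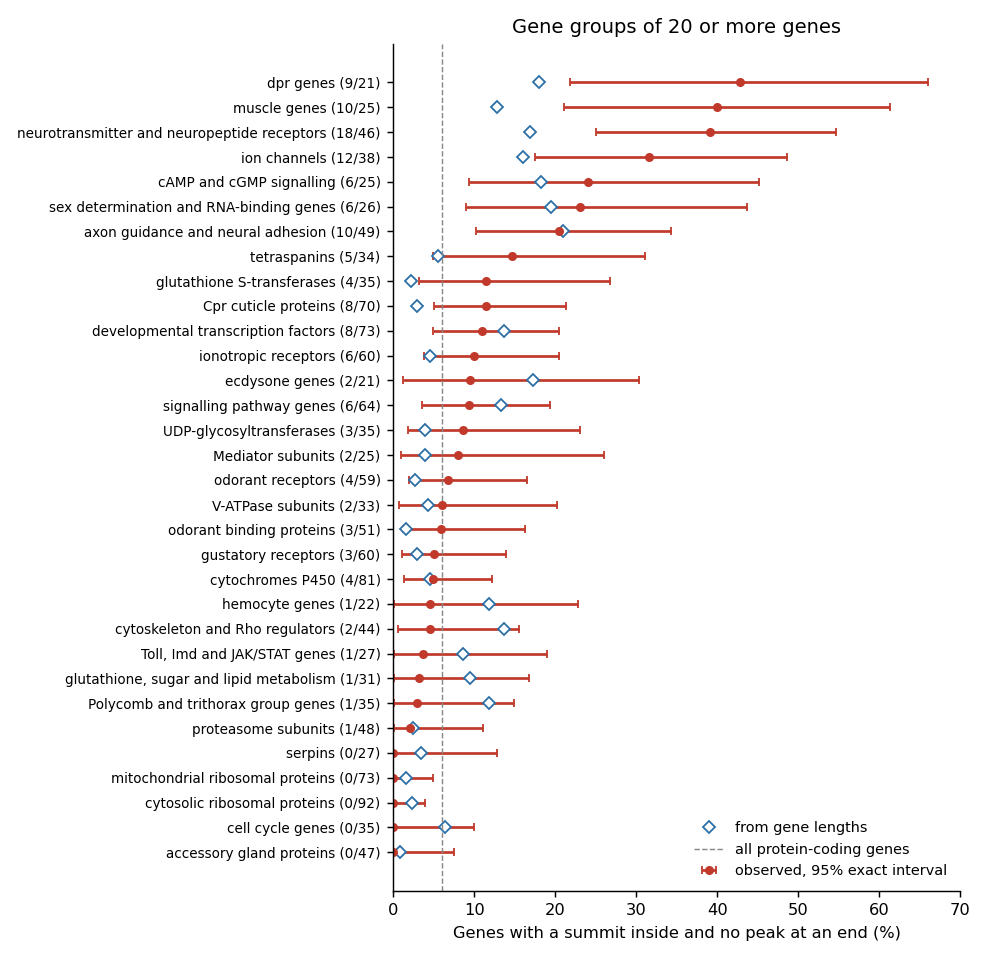
Share of genes with a summit inside and no peak at an end (x axis, %) in each group of at least 20 genes (y axis, members over genes); red points carry 95% exact intervals, open diamonds give the share that gene lengths alone would give, and the dashed line is the 6.04% of all protein-coding genes. The dpr, muscle, receptor and ion channel groups lie to the right of their diamonds. So do others, such as the Cpr, glutathione S-transferase and tetraspanin families. The cell cycle genes are at 0 of 35. The diamonds take no account of how many genes in a group had a peak at an end.

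The inside-open genes of the RNA-binding, developmental and signalling lists held a median of 24.5, 8.5 and 10.5 summits, against 2 over all inside-open genes, and more summits raise the maximum by construction. Among genes of sex determination and RNA binding 6 of 26 were inside-open (23.1%, 8.97 to 43.6%), near the 5.07 from lengths, and in each the strongest summit reached 98. These were fru (541), mbl, a muscleblind splicing factor gene (347), heph (293), Imp, which encodes an mRNA-binding protein (193), Rbfox1 (130) and dsx, the sex-specific transcription factor gene (112). Homeodomain and other developmental transcription factor genes gave 8 of 73 (95% interval 4.85 to 20.5%) against 9.98 from lengths, and 5 of the 8 reached 98: inv (407), Abd-B (374), hth (349), sd (281) and Antp (166). The others were vnd (39), pdm2 (31) and tll (22).

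Among the homeotic genes Abd-B had 11 summits in 45.0 kb. The one of 374 lay 21.5 kb from the left end, and the other 10 had pileups of 31 to 111, at 6.31 to 7.61 kb and 30.8 to 43.1 kb. Antp also had 11, in 103.0 kb, with pileups of 25 to 166 and the highest at 16.7 kb. Both stood near the background floor, with backgrounds up to 11.8 in Abd-B and 10.3 in Antp. In inv, the paralog of engrailed, the summit of 407 lay 1.16 kb from its left end, and the other 5 had 22 to 46.

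Signalling genes gave 6 of 64 (9.38%, 3.52 to 19.3%) against 8.54 from lengths, and 5 reached 98: shn (859), spi (405), ci, the transcription factor of the Hedgehog pathway (178, at 21 bp from an end of an antisense RNA gene), Notum, which inactivates Wnt ligands (109), and ths, an FGF ligand gene (102). The ligand gene Wnt2 had 26. In the ecdysone list Hr3 and Eip78C, both nuclear receptor genes, were the 2 of 21, with 526 and 436. The cAMP and cGMP list gave 6 of 25 against 4.54 from lengths, led by the phosphodiesterase gene Pde11 with 23 summits and a pileup of 303, then Pka-C3 with 56 and Ac3 with 34.

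Several groups had 1 or 2 inside-open genes. Polycomb and trithorax genes gave 1 of 35, tna, where lengths gave 4.13. Its 27 summits had a median pileup of 121 and a highest of 350. Cytoskeleton regulators gave 2 of 44, where lengths gave 6.00: cher, the filamin gene, with 18 summits and a highest pileup of 157, and RhoGEF64C with 17 summits of 20 to 27. The hemocyte list gave vkg, which encodes a collagen IV chain. Its 12 summits had pileups of 25 to 126, and the strongest lay 6.39 kb from its nearer end. The metabolic list gave Gs2, a glutamine synthetase gene with 8 summits and a highest pileup of 166, and the immune list gave PGRP-LB, a peptidoglycan amidase gene, with 27.

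Families named by symbol varied at low numbers. Cuticle protein genes of the Cpr family gave 8 of 70 (11.4%, 5.07 to 21.3%), where lengths gave 2.05, and none reached 98. Glutathione S-transferases gave 4 of 35 (11.4%), where lengths gave 0.771, with GstT3 at 111 and GstS1 at 102. Odorant receptors gave 4 of 59 (6.78%), where lengths gave 1.58, with pileups of 21 to 28. Tetraspanins gave 5 of 34 (14.7%), where lengths gave 1.85. Accessory gland proteins (47 genes) and serpins (27) gave 0, which allows shares of up to 7.55% and 12.8% by the exact interval. Genes known only by a CG number gave 335 of 6105 (5.49%, 4.93 to 6.09%), near the 6.04% of all genes and above the 4.37% that their lengths gave.

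On the autosomal arms 2L, 2R, 3L and 3R the share of inside-open genes was 6.36, 6.03, 6.17 and 6.36%. On X it was 4.82% of 2197 genes (3.97 to 5.81%), where gene lengths would give 6.80%. The median pileup of the sites in inside-open genes was 50 on X and 36 to 41 on the 4 arms, and 56.4% of the X sites stood at the background floor, against 40.7 to 49.3% on the arms. The differences between X and the arms were not tested. On chromosome 4, 7 of 80 genes were inside-open (8.75%, 3.59 to 17.2%), where lengths would give 12.5%. They were MED26 (highest pileup 214), Asator (202), ci (178), CG32017 (123), fuss (95), CG1674 (57) and Kif3C (37).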

How the data were processed

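Per the submitters' processing notes, Bowtie2, MACS2 and deepTools were used with the build dm6; the sources used here give no versions, no settings and no word on pooling of libraries. The deposited list held 1 line per summit: fold enrichment as a ratio, −log10 of p-value and q-value, and a score that equalled the whole part of 10 times the −log10 q in 35534 of 35535 lines and was not used. In 65 lines without a placed summit the interval's middle was used. Pileup and background were solved from the deposited fold (pseudocount 1) and −log10 p under a Poisson upper tail, and met them within 0.001 in 35535 lines. The largest residual was 0.000521.

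Genes came from a RefSeq table of Release 6 plus ISO1 MT (17807 genes on 7 chromosomes). Positions are counted from 1. It gives no strand, exons or sequence, so the planned promoter motifs and the alternative with 5′ starts only were not run, and no sequence is printed. Shares carry exact (Clopper-Pearson) 95% intervals, with genes or summits as units.

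No test was run. Columns left out numbered 0. Members, gene lists and the rule for named genes were chosen with earlier results of these data known. That rule took the genes with most summits, the strongest sites away from and at ends of other genes, the shortest, longest and densest genes, those at the rule's boundary, and the 3 strongest of each of 15 function lists. Other genes, those of the 23 symbol families included, were chosen after their values were seen, as were the pooled groups of 273 and 185 genes. Of the listed genes 3 had no match. A result named by the rule is not reported here. Python 3.11.15, pandas 2.3.3 and SciPy 1.17.1 were used, and the recovery was tested on simulated data.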

Additional observations from a re-analysis of the deposited data

How the results depend on the processing

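The number of inside-open genes depended on the window: it was 1289 with 100 bp, 523 with 500 bp and 294 with 1000 bp, against 843. It was 209 of 2260 genes whose ends both lay over 1 kb from other ends (9.25%), and 414 of the 8184 that overlap no other protein-coding gene (5.06%, an alternative chosen after seeing the data). It stayed within 1.5 times under the other settings: 579 with peaks of −log10 q of at least 10 and 647 at or above the median fold, 999 with the summit required in the window, 843 with 1 summit per interval, 805 without summits at ends of other genes, and 830 with identical coordinates counted once. Of the 579 and 647 genes, 416 and 406 were among the 843. The median length was 10719 bp with the q threshold, 10808 with the fold threshold, 5799 with 100 bp and 16688 with 1000 bp. The median pileup was 93, 105 and 43 with the q threshold, the fold threshold and 100 bp. The median distance was 4740 bp with the fold threshold, 4633 with 100 bp and 8107 (8106.5) with 1000 bp. The share of summits at ends of other genes was 12.6% with the q threshold and 12.0% with the fold threshold. Inside-open genes of the 15 function lists numbered 84 of 550 (15.3%), where lengths gave 77.2, and 41 with 1000 bp. With the q threshold the muscle list fell from 10 to 4 and the receptor list from 18 to 11. With 1000 bp the ion channel list fell from 12 to 4, the muscle list from 10 to 5 and the receptor list from 18 to 14. Over all protein-coding genes the share was 4.15% with the q threshold and 2.11% with 1000 bp. The list of Polycomb and trithorax genes went from 1 to 3 with the q threshold. Thresholds drop weak peaks at gene ends too, so genes both leave and enter.

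No paired analysis was possible because 1 list of peaks served both libraries, so neither library was left out in turn. The unknown depth limits the weak sites: at a pileup of 20, the lowest listed, a site missed elsewhere is not distinguished from one that is closed.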

Other observations

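Among the 70 inside-open genes with 10 or more summits, the typical strength ranged from a median pileup of 22 in RhoGEF64C to 594 in HmgZ. In 19 of the 70 the median was at or below 33, and 16 had no summit at or above 109. RhoGEF64C had 17 summits in 103.5 kb, all of 20 to 27, over a median background of 9.91. CG13954 had 16 of 20 to 33 in 80.2 kb, and Con, on the same arm as RhoGEF64C, had 41 with a median of 25. At the other end, 8 of the 70 had a median at or above 109, among them chn, a zinc-finger gene (21 summits, median 173), and sd, the TEAD factor gene (12, median 113.5). These groups were formed after the values were seen.

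On the Y chromosome, which holds genes for sperm tails and male fertility, 4 of 24 genes were inside-open and 1 had a peak at an end. Their strongest pileups were 524 in kl-5, 211 in CCY, 187 in Ppr-Y and 53 in kl-2. All 10 summits inside them stood at the background floor of 9.91 fragments, and their median pileup was 124. How reads that match several places were counted is unknown, and whether this bears on these Y sites was not tested. The 5 summits of kl-5 lay at 102.0 to 110.4 kb from the left end of a gene of 115.2 kb.

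In the table of genes, 25 inside-open genes shared both coordinates with another at 12 loci, such as Adh and Adhr, stnA and stnB, and Gr64b and Gr64c. Their sites count for each gene. Also, 121 inside-open genes overlapped another inside-open gene, and 107 lay wholly inside another protein-coding gene or had the same coordinates as one.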
